A study of Homo sapiens with 23 samples.

Results

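Cytosolic ribosomal protein genes were defined by their symbols: protein-coding genes named RPL or RPS followed by digits, with or without an A, X, Y1 or L ending, the stalk genes RPLP0 to RPLP2, and RPSA. Pseudogenes and the RPS6K kinases were left out. The rule found 83 genes among the 36085 genes with quantified transcripts, 50 of the large subunit and 33 of the small subunit. Of these, 77 encode the constitutive proteins of the ribosome and are called core genes here. The other 6 are paralogs that can take the place of a core protein (RPL3L, RPL10L, RPL36AL, RPL39L, RPS27L and RPS4Y1).

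The RNA came from SCi-NCCITs, NCCIT embryonal carcinoma cells (an established human line with pluripotent features) that carry a doxycycline-inducible dCas9-KRAB, a nuclease-dead Cas9 fused to a repressor domain, inserted with piggyBac. All SCi-NCCITs also express a pair of sgRNAs against SVA transposons without induction, and both conditions were kept under puromycin and geneticin. The cells descend from stable clones, and whether 1 clone or several were sequenced is not given in the sources used here. The 3 control libraries were grown without doxycycline, and the 3 treated libraries received 2 µg/mL doxycycline for 72 h. The guides also match the related LTR5Hs elements. No library was treated with doxycycline in the absence of dCas9-KRAB or the sgRNAs, so the drug itself and repression of the elements cannot be told apart. ChIP-seq peak lists of the transcription factors YY1 and OCT4 and of the histone mark H3K9me3 were used for the chromatin at the same genes. A single H3K9me3 library came from parental NCCITs, without dCas9-KRAB and sgRNAs. The other ChIP-seq libraries came from SCi-NCCITs.

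Each ribosome holds 1 copy of nearly every ribosomal protein beside its rRNAs, so the genes are transcribed in step with each other and at very high levels. Their mRNAs begin with a C and a run of pyrimidines, the 5′ terminal oligopyrimidine (5′TOP) motif, through which mTOR and LARP1 control their translation. Translation is not measured by RNA-seq. Rapidly dividing pluripotent cells need a large supply of ribosomes, whereas several paralogs are best known from differentiated tissues: RPL3L from striated muscle, RPL10L and RPL39L from testis, and RPS27L as a target of p53.

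The starts of 3 core genes (RPL41, RPL39 and RPL3), of the paralogs RPL36AL and RPS27L, and of the core genes these resemble are shown to compare how much of the motif each carries. The sequences are from RefSeq (GRCh38.p14), run from 40 bases before to 15 bases after the first base of the annotated start (5′ to 3′ on the gene's strand) and carry in capitals the unbroken pyrimidine run that begins with C at the start.
RPL41, chr12:56116593-56116647, plus strand: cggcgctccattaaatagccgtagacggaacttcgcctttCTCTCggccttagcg
RPL39, chrX:119791616-119791670, minus strand: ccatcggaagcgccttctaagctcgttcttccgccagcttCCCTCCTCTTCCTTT
RPL3, chr22:39319609-39319663, minus strand: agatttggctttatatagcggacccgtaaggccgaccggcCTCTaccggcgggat
RPL36A, chrX:101390971-101391025, plus strand: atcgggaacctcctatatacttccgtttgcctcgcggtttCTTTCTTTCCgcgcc
RPL36AL, chr14:49620612-49620666, minus strand: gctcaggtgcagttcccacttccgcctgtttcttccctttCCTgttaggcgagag
RPS27, chr1:153990722-153990776, plus strand: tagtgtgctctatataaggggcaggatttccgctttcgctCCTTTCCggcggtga
RPS27L, chr15:63157463-63157517, minus strand: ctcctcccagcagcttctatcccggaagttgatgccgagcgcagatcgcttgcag

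Of the 83 genes, 66 had an entry in the RefSeq promoter table. Among those without one were RPL23, RPL23A, RPL30, RPL37, RPL39L, RPL3L, RPL5, RPL7, RPL8, RPS15A, RPS2 and RPS20. A C at the start followed by pyrimidines, at least 5 in all, was present in 43 of the 66 (65.2%) and in 3.95% of the 35035 other promoters of the table. In RPL39 the run was 19 bases long, in RPL36A 10, in RPS27 7 and in RPL41 5. RPL3 missed the limit with 4 bases, and of the paralogs shown RPL36AL had a run of 3 and RPS27L none. The paralog RPS4Y1, not shown, had a run of 7. Where the run could begin up to 5 bases before or after the annotated start, 52 of the 66 (78.8%) had it, against 21.0% of the others. RPL36AL (8 bases) and RPL3 (5 bases) then passed, and RPS27L did not. Within the 300 bases from 250 before to 50 after the start, searched on both strands, ATGGCG (the core of the YY1 motif) was present in 34.9% of ribosomal protein promoters against 10.6% of the others. CCGGAAG, an ETS factor core, was found in 33.3% against 10.2%, and the GC box GGGCGG in 56.1% against 44.9%. TATAA was present in 18.2% against 20.4%. The motifs are matches of letters in the window and do not measure binding.

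The 6 RNA libraries held between 15305909 and 49878613 estimated counts, and control replicate 1 was the shallowest. In the fit across all 16371 genes tested, 2858 (17.5%) passed an adjusted p of 0.05 with edgeR's quasi-likelihood test, 1469 higher (8.97%) and 1389 lower (8.48%) with doxycycline, and the median log2 fold change was near 0 (-0.0025). The labels do not say whether replicates were separate cultures, so p-values measure the spread between these libraries. The markers of embryonal carcinoma cells were present in every library, for example SOX2 at 259 to 371 TPM and LIN28A at 261 to 320 TPM. Of the 12 pluripotency markers, 7 fell with doxycycline, among them TDGF1 (log2 fold change -1.13) and NANOG (-0.57), and their summed level was 1767 to 1958 TPM in the control and 1357 to 1513 TPM in the treated libraries. Of the 7 germ layer markers tested, 3 rose (NES, MIXL1 and GATA6, the last with at most 1.07 TPM), and HAND1, the most abundant (104 to 143 TPM, log2 fold change -0.05), PAX6, FOXA2 and GATA4 did not pass. Among the trophoblast and germ cell markers, 0 of 4 tested passed in edgeR (2 at an unadjusted p below 0.05). The trophoblast marker TFAP2A was the most abundant of these, at 372 to 509 TPM (log2 fold change -0.18, adjusted p = 0.0728, edgeR). The germ cell markers DDX4 and NANOS3 were too low to be tested, and the part of these changes in the results below was not tested.

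Units of TPM correct for transcript length and depth and can be compared between genes. All transcripts of the ribosomal protein genes together held 24.1, 22.0 and 23.6% of TPM in the 3 control libraries. In the treated libraries they held 23.3, 22.5 and 21.3%. The mean was 23.3% ± 1.09 (SD, n = 3) in the control and 22.4% ± 1.02 (SD, n = 3) in the treated cells, and the groups overlapped. The large subunit contributed 12.8 to 14.4% and the small subunit 8.53 to 9.73%. By estimated counts, which favour long transcripts, the same genes held 7.77 to 8.92% of each library. Their transcripts annotated as protein-coding held 20.1 to 21.8% of TPM in the control and 19.3 to 21.2% in the treated libraries. Other transcripts held most of the TPM of some genes, for example 87.8% for RPL14 without doxycycline.

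The mean levels of the core genes ran from 77.7 to 7997 TPM. The median of their mean TPM was 2613, and 73 of the 77 were above 1000 TPM. The highest was RPL41, which encodes the smallest protein of the ribosome, at 8300, 7501 and 8398 TPM without and 8210, 7950 and 7624 TPM with doxycycline. RPS27, a zinc-binding protein of the small subunit, followed at 6871 to 7953 TPM, then RPL39 of the exit tunnel (6149 to 6703 TPM) and RPL37A (5351 to 6570 TPM). Among these, the libraries of RPL41 and RPS27 overlapped, as did those of RPL39 and RPL37A, whereas RPS27 lay above RPL39 in every library.

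The 4 core genes below 1000 TPM were RPL23A (658 to 748 TPM), RPS26 (307 to 356 TPM), RPS9 (86.1 to 928 TPM) and RPL9 (70.5 to 82.2 TPM). Ribosomal protein genes have many processed pseudogenes, and reads that match several copies are divided among them by the quantification. RPL9, a protein of the large subunit near the stalk, shared 85.7% of the 31-base words of its main transcript with other genes, all of these with RPL9P9, and RPL23A shared 76.4%. The pseudogenes named after RPL9 held 2187 TPM on average against 77.7 TPM of RPL9 itself, and those of RPL23A 999 TPM against 718 TPM. Those of RPS28, a core gene above 1000 TPM, held 2011 TPM against 1502 TPM. The part of read assignment in the low place of RPL9 and RPL23A was not tested. The 1584 annotated pseudogenes of the group took between 2.06 and 2.19% of the counts of genes and pseudogenes together. Over all members, the share of words found in other genes had a median of 53.3% and exceeded 90% in 6 (RPL17, RPS10, RPL7, RPL21, RPS3A and RPL10), so the level of single genes is uncertain where copies are alike.

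Among the paralogs, RPL36AL was at 136 to 177 TPM, RPS27L at 96.6 to 110.0 TPM, RPL39L at 52.1 to 82.5 TPM and RPL3L at 1.99 to 2.72 TPM. RPL10L was listed at 0 TPM in all 6 libraries, and RPS4Y1, the Y-linked paralog of RPS4X, was below the filter on low counts. Together the paralogs made up 0.138% of the TPM of all ribosomal protein genes in the control and 0.152% in the treated cells. Next to the gene it resembles each was lower: RPL36A was at 4747 to 5405 TPM, RPS27 at 6871 to 7953 TPM, RPL39 at 6149 to 6703 TPM and RPL3 at 2326 to 2914 TPM.

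With doxycycline, 4 of the 81 ribosomal protein genes that could be tested passed the threshold (4.94%, against 17.5% of all genes), 3 higher and 1 lower. RPL10L and RPS4Y1 could not be tested. All 4 were paralogs, and they were all of the paralogs tested. None of the 77 core genes passed in edgeR (0 at an unadjusted p below 0.05), nor in DESeq2, with which 2 of the 76 that it tested were below 0.05 unadjusted. The 81 genes had a median log2 fold change of 0.00, with 41 below 0, close to the median over all genes.

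RPL39L, a paralog of the tunnel protein RPL39 (ENSG00000163923, chr3:186838736-186898696 in hg19), fell. It was at 82.5, 76.6 and 69.4 TPM without and at 55.9, 52.1 and 60.8 TPM with doxycycline. The treated libraries all lay below the control libraries, with a log2 fold change of -0.38 (SE 0.0776, adjusted p = 0.0112, edgeR). RPL39 itself was at 6469, 6469 and 6703 TPM and at 6481, 6668 and 6149 TPM, with a log2 fold change of 0.04 (95% interval -0.11 to 0.19).

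RPL36AL, a close paralog of RPL36A (ENSG00000165502, chr14:50085248-50087344), rose. It was at 136, 145 and 145 TPM in the control and at 169, 177 and 168 TPM in the treated libraries. The groups did not overlap, and the log2 fold change was 0.32 (SE 0.0589, adjusted p = 0.00646, edgeR), a fold of 1.25. RPL36A was at 5214, 5091 and 5405 TPM and at 5235, 5207 and 4747 TPM, with a log2 fold change of 0.01 (95% interval -0.15 to 0.17).

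RPS27L (ENSG00000185088, chr15:63418071-63450220), the p53-inducible paralog of RPS27, was at 96.6, 97.1 and 105 TPM without and at 109, 110.0 and 108 TPM with doxycycline. It rose by 0.22 on the log2 scale (SE 0.0636, adjusted p = 0.0460, edgeR), the smallest change of these paralogs. The groups were separate but close, and the call was lost when any single library was left out (adjusted p = 0.0562 to 0.186). RPS27 was at 7325, 7560 and 7919 TPM and at 7742, 7953 and 6871 TPM, with a log2 fold change of 0.06 (95% interval -0.12 to 0.24).

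RPL3L (ENSG00000140986, chr16:1993975-2007607), the muscle paralog of RPL3, had 2.02, 2.06 and 1.99 TPM without and 2.72, 2.38 and 2.32 TPM with doxycycline. It rose by 0.48 on the log2 scale (SE 0.125, adjusted p = 0.0293, edgeR), from a low level with as few as 37 counts in a library. Its call was lost when control replicate 2 or 3 or treated replicate 1 or 2 was left out (adjusted p = 0.0621 to 0.106), and with DESeq2 (adjusted p = 0.0898). With counts scaled for transcript length its rise was 0.33 and also not called (adjusted p = 0.217, edgeR). Transcripts not annotated as protein-coding held 12.5% of its TPM without and 2.96% with doxycycline. RPL3, which shapes the peptidyl transferase centre, was at 2914, 2559 and 2632 TPM and at 2465, 2453 and 2326 TPM, with a log2 fold change of -0.12 (95% interval -0.28 to 0.04).

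In CPM (counts scaled to library size), all 4 paralogs tested had no overlap between the groups, as had 37.0% of all genes. Whether a paralog changed more than the core gene it resembles was not tested. Of the 31-base words of their main transcripts, RPL3L shared 3.45%, RPS27L 4.62%, RPL36AL 33.3% and RPL39L 34.6% with other genes. Of these calls, that of RPL36AL was kept under each of the 16 other settings and that of RPL39L under 15, all but the fit without treated replicate 2 (adjusted p = 0.0599). The rule does not reach 3 further paralogs by name: RPL26L1 was at 77.8 to 79.7 TPM in the control and at 84.0 to 89.0 TPM in the treated libraries and did not pass the threshold (log2 fold change 0.19, adjusted p = 0.0529, edgeR), and RPL22L1 (-0.15) and RPL7L1 (0.00) did not pass either.

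The intervals of the core genes were narrow. Leaving out RPS9 (below), the log2 fold changes of 76 genes lay between -0.15 (RPSA) and 0.12 (RPL36), with a median of 0.00. Their 95% intervals reached from -0.32 to 0.37, that is from a fold of 0.801 to 1.295, and 70 of the 76 lay within 0.3 of 0 on either side. The standard errors were 0.0536 to 0.124 (median 0.0701), against a median of 0.0888 over all genes. The 46 core genes of the large subunit had a median of -0.02 with 25 below 0, and the 31 of the small subunit a median of 0.00 with 15 below 0.

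**Figure D1:**
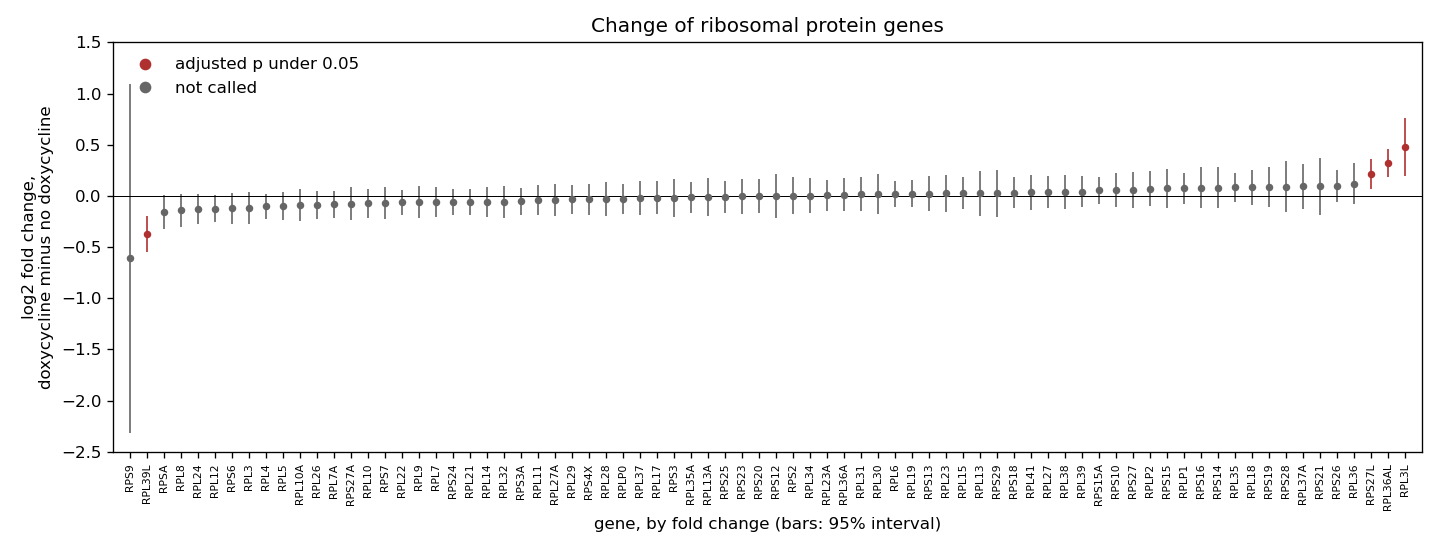
Log2 fold change (doxycycline minus no doxycycline) of 76 of the tested ribosomal protein genes with 95% intervals, ordered by size, red where the adjusted p of edgeR's test is below 0.05. The 4 red points are RPL39L at -0.38 and RPS27L, RPL36AL and RPL3L at 0.22 to 0.48, and the one wide interval belongs to RPS9.

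RPSA, which sits on the head of the small subunit and is also known as a laminin receptor, had the lowest value of these 76. It was at 1673, 1619 and 1701 TPM without and at 1453, 1523 and 1334 TPM with doxycycline (log2 fold change -0.15, SE 0.0736, adjusted p = 0.181, edgeR). RPL12, a protein of the stalk base, had the smallest adjusted p of the core genes (-0.13, SE 0.0583, adjusted p = 0.168, edgeR), with 2865, 2753 and 2903 TPM against 2516, 2511 and 2467 TPM. In CPM 2 of the 77 core genes, RPS6 and RPL4, were without overlap, both lower with doxycycline, against 37.0% of all genes. In TPM, 20 core genes were lower in all treated libraries (18.4% of all genes were) and 0 were higher (13.2% of all genes). The median log2 ratio of the mean TPM of core genes was -0.05. The TMM factors used for CPM lay between 0.991 and 1.009. The source of the difference between CPM and TPM was not tested. RPS6, the small-subunit protein that S6 kinase phosphorylates, was at 2526 to 2646 TPM without and at 2095 to 2368 TPM with doxycycline (log2 fold change -0.12, 95% interval -0.27 to 0.03), and RPL4 at 4977 to 5336 TPM and at 4681 to 4900 TPM (-0.10, -0.23 to 0.02). These 2 genes and the groups in the next paragraph were chosen after their values were seen.

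The acidic stalk recruits the elongation factors. RPLP0, its base, had a log2 fold change of -0.03, and RPLP1 and RPLP2 had 0.08 and 0.07. All 3 were short of the threshold (lowest adjusted p = 0.468, edgeR), which 17.5% of all genes passed. RPL5 and RPL11 form a particle with 5S rRNA that can bind MDM2 when assembly is disturbed. Their log2 fold changes were -0.10 (95% interval -0.23 to 0.03) and -0.04 (-0.19 to 0.11). Of 18 ribosomal protein genes with mutations known from Diamond-Blackfan anaemia, an inherited failure of red cell production, 0 passed, against 17.5% of all genes. Of the 18, 7 lay below 0, against 50.4% of all genes, and their log2 fold changes ran from -0.10 (RPL5) to 0.10 (RPS26). The core genes on the X chromosome, RPS4X, RPL10, RPL36A and RPL39, lay between -0.07 and 0.04.

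The variation that the core genes did show was shared among them and followed single libraries. In control replicate 2 the median core gene lay 0.12 below its mean over the 6 libraries on the log2 scale (deviation -0.12), and only 3 of the 77 genes lay above their mean. In treated replicate 3 the deviation was -0.11, again with 3 genes above the mean. The other 4 libraries lay higher, at 0.08 (72 genes above the mean) and 0.05 (64 genes) for control replicates 1 and 3, and at 0.05 for both treated replicates 1 (65 genes) and 2 (62 genes). Each condition thus held 1 low library. Genes of 1 library share its preparation and are not independent. The median difference between transcript length and effective length, a measure of fragment size, was 190.4 bases in control replicate 2 and 177 bases in treated replicate 3, against 173 to 182 bases in the other 4 libraries, and its part in the shift was not tested.

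Without control replicate 2 the median of the 81 genes was -0.07 and 67 lay below 0, and without treated replicate 3 it was 0.06 and 24 lay below 0. Without control replicate 1 or 3 the medians were 0.04 and 0.02 with 30 below 0 in each, and without treated replicate 1 or 2 they were -0.03 and -0.03 with 54 and 53 below 0. The balance of the group between higher and lower thus moved with each library left out, and furthest with the 2 low ones. With both left out, the median was -0.01 and 44 of 81 lay below 0. No core gene passed (2 at an unadjusted p below 0.05, edgeR), and of the paralogs RPL36AL and RPL39L were called. Of all genes, 7.22% passed with both left out, against 17.5% with every library in the fit. This setting was added after the data were seen.

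RPS9, a protein of the small subunit body (ENSG00000170889, chr19:54704677-54752862), varied far more than any other member. It was at 928, 86.1 and 113 TPM in the control libraries and at 225, 204 and 273 TPM in the treated libraries. A single control library, the shallowest, was several times above all others, and the treated libraries lay between it and the other two controls. The log2 fold change was -0.61 (SE 0.756, adjusted p = 0.616, edgeR). Without control replicate 1 it was 1.34 (adjusted p = 0.000881, edgeR), so that the lack of a call rests on that library. The sign also turned when replicate number was added to the fit of all libraries (0.29, adjusted p = 0.78, edgeR). Of the 31-base words of its main transcript, 47.0% occur in other genes, and 7 transcripts outside the annotation, with identical levels in each library, were lowest in the same library. The sum of RPS9 and these 7 was 1585 to 1773 TPM without and 1484 to 1688 TPM with doxycycline, above 1000 TPM and with far less spread. The identity of the 7 was not established, and their part in the spread of RPS9 was not tested.

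The ribosomal components FAU and RACK1, whose genes carry other symbols, were not called either. FAU encodes the small-subunit protein eS30 fused to a ubiquitin-like protein. It had 1738, 1595 and 1652 TPM without and 1887, 1830 and 1702 TPM with doxycycline (log2 fold change 0.18, adjusted p = 0.122, edgeR). RACK1, a scaffold on the small subunit head, had a log2 fold change of -0.08 (95% interval -0.22 to 0.07), also short of the threshold.

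Of 30 translation factors and other mRNAs with a 5′TOP motif, 1 rose and 10 fell (36.7% called, against 17.5% of all genes, median -0.09). EIF4B, a helper of the eIF4A helicase, went from 470, 482 and 452 TPM to 335, 329 and 344 TPM (log2 fold change -0.43, SE 0.0505, adjusted p = 0.000604, edgeR). EIF2S3, a subunit of the initiator tRNA carrier eIF2, fell by 0.38 and HNRNPA1, a splicing factor, by 0.35. EEF1A1, the elongation factor that delivers tRNA and the most abundant gene of the list, went from 14253, 14664 and 14588 TPM to 12128, 12475 and 11519 TPM (log2 fold change -0.21, adjusted p = 0.0331, edgeR). EEF2 fell by 0.28, NPM1 by 0.26 and PABPC1 by 0.21, while EEF1G (-0.03) did not pass. COX7C, a subunit of cytochrome oxidase, rose by 0.34. The difference between these genes and the ribosomal protein genes was not tested.

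Of 55 tested factors of ribosome assembly and rRNA transcription, 1 rose and 7 fell (14.5% called, below the share of all genes, median -0.05). UTP14A, NOP58 and WDR43 fell by 0.40, 0.31 and 0.31 on the log2 scale, and nucleolin (NCL), the most abundant, by 0.25. NOP10 (0.12) and TAF1D (0.11) did not pass. Among 22 regulators of ribosomal protein mRNAs, 1 rose (AKT1, 0.20) and 4 fell (22.7% called, near the 17.5% of all genes). MYC, which drives ribosome production in many cells, went from 20.2, 15.3 and 14.7 TPM to 8.53, 8.47 and 11.3 TPM (log2 fold change -0.70, adjusted p = 0.00343, edgeR), and MYCN from 67.5 to 73.5 TPM to 42.3 to 45.7 TPM (-0.61, adjusted p = 0.000160). EIF4EBP2, an inhibitor of the cap-binding protein, fell by 0.34. EIF4EBP1 (-0.15), RHEB (0.00) and LARP1 (-0.21, adjusted p = 0.0611) did not pass, nor did YY1 (-0.10). Of 11 snoRNA host genes with 5′TOP starts, only SNHG32 was matched in the tables, with a log2 fold change of 0.18 (adjusted p = 0.245, edgeR).

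YY1, a zinc finger factor that binds near the start of many housekeeping genes, had a peak within 1000 bp of the start site at most ribosomal protein genes. The authors called peaks in each library separately at a 5% FDR on hg19. Without doxycycline 75 and 73 of the 83 genes (90.4 and 88.0%) carried one in the 2 libraries, against 64.7 and 62.1% of 15105 other protein-coding genes that were tested. With doxycycline 75 and 76 genes (90.4 and 91.6%) carried one, against 69.2 and 70.7% of the others. In all 4 libraries together 72 genes had a peak and 7 had none, among them RPS18, RPL4, RPL3L, RPL36, RPL10 and RPS4Y1. Only the outermost annotated 5′ end of each gene was searched. A promoter that lies further inside the annotated gene was therefore missed, and a gene without a peak here may carry YY1 at another start. The median fold enrichment of the strongest peak was 13.0 and 14.6 without and 16.1 and 17.6 with doxycycline. The lists held 56370 and 76098 peaks without and 82005 and 115673 with doxycycline, and 2 against 2 libraries were not tested. RPL13A had the highest enrichment in every library, 125 to 148. At RPS27 it was 57.0 to 79.6, at RPL3 31.6 to 56.2 and at RPL36A 3.80 to 6.07. Of the called paralogs, RPL36AL (14.3 to 21.0), RPS27L (7.47 to 12.8) and RPL39L (6.85 to 9.95) had a peak in all 4 libraries, and RPL3L in none.

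OCT4 (POU5F1), a pluripotency factor, had a peak at 48 of the 83 genes (57.8%, against 39.6% of other genes) without doxycycline and at 4 (4.82%, against 4.54%) with it. At a −log10 q of at least 5 the count without doxycycline was 26, and with equal numbers of peaks in both lists it was 13. The shares of other genes under these settings were not computed. There was 1 library of each, and the whole list shrank from 50775 to 23352 peaks, so the loss at ribosomal protein genes has no replicate check. The genes with a peak in both were RPS7, RPL35A, RPS14 and RPL39, and no gene had one with doxycycline alone. At RPL39 the enrichment was 7.91 without and 6.92 with doxycycline. The POU5F1 mRNA was at 250, 190 and 178 TPM without and 203, 168 and 178 TPM with doxycycline (log2 fold change -0.12, adjusted p = 0.527, edgeR).

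H3K9me3, the mark that KRAB deposits through its cofactors, differed between libraries at these starts. The NCCIT library without dCas9-KRAB had 0 of 83 genes with a peak (2.24% of other genes). Without doxycycline 14 genes (16.9%, against 4.71% of other genes) had one in replicate 1 and 2 genes (2.41%, against 3.36%) in replicate 2. With doxycycline these were 12 genes (14.5%, against 3.67%) and 3 genes (3.61%, against 3.83%). The counts thus differed between libraries of a condition more than between conditions. Of the genes in the libraries numbered 1, 10 were shared between the conditions, and RPL11 alone had a peak in all 4 libraries of SCi-NCCITs, with an enrichment of 14.2 and 3.78 without and 17.3 and 8.62 with doxycycline. Of the called paralogs only RPL3L had a peak, in control replicate 1 (4.80) and treated replicate 2 (3.03). Of the 83 genes, 7 (RPS7, RPL37, RPL7A, RPS3, RPL26, RPL27 and RPS9) started within 50 kb of an SVA that the study lists as de-repressed (8.43%, against 3.71% of other genes). Only the 635 listed SVAs on assembled chromosomes were used. The nearest was 6761 bp from RPS7. None of the 4 called paralogs was among them.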

How the data were processed

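RNA-seq (poly(A), strand-specific, 100 bp paired-end) had 3 libraries per condition, and the authors deposited kallisto estimated counts and TPM per transcript. For ChIP-seq, the authors aligned reads to hg19 with BWA MEM, removed duplicates and deposited peaks per library, with enrichment as a fold ratio and p- and q-values as −log10 of each. Effective transcript lengths, also deposited, were used for length scaling.

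Of the 188753 transcripts, 88.2% were matched to genes of GENCODE 44 (hg19). Estimated counts were added up by gene and rounded. The conditions were compared by the quasi-likelihood test of edgeR 4.0.16 (R 4.3.3) with TMM factors, its filter on low counts and Benjamini-Hochberg adjustment over all genes (threshold 0.05), which was also tested on simulated data. Alternatives were DESeq2 1.42.0, other normalizations, filters and transcript choices, a replicate block, and each library left out. A peak counted when it shared 1 bp with the start site ± 1000 bp. The start site was the outermost annotated 5′ end of the gene. Figures used matplotlib 3.10.9. Members and lists were chosen with earlier results of these data known. Genes were named by rule: called members, the 5 highest and 5 lowest by TPM, paralogs with their parents, and in each related list the 3 with the smallest p and the 3 with the highest TPM. Others were chosen after their values were seen. A few genes are not named or plotted here, but counts include them. Peak depth is unknown. A table of HiChIP contacts was not used, since its 16 value columns could not be assigned to samples.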

Additional observations from a re-analysis of the deposited data

How the results depend on the processing

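Of the 4 called paralogs, RPL36AL kept its call under 16 of 16 alternatives, RPL39L under 15, RPL3L under 9 and RPS27L under 6, all with the same direction. Length-scaled counts gave 1878 genes called in place of 2858 and 1 ribosomal protein gene higher in place of 3. With 1 library left out the calls ran from 1396 to 3259, those among ribosomal protein genes from 1 to 3 higher and from 0 to 1 lower (0 without treated replicate 2), and the cause was not tested. Without both libraries in which core genes were lowest (chosen after seeing the data) there were 1188 calls, 1 higher and 1 lower among the members. The log2 fold change of RPS9 ran from -1.11 to 1.34 with 1 library left out and was reversed, at 1.34 (adjusted p = 0.000881, edgeR), without control replicate 1. With the replicate block it was 0.29 and not called (adjusted p = 0.78, edgeR). No other core gene was called under any of these settings. Replicate numbers did not pair the libraries (correlations of same-numbered libraries 0.29, 0.09 and -0.01, and not every library was closest to its own number), and with the replicate block 3316 genes were called, 3 members higher and 1 lower. For H3K9me3, using all transcript starts gave 24 genes in replicate 1 of each condition and 1 in NCCITs, a window of 500 bp gave 9 in control replicate 1 and 1 in control replicate 2, and a −log10 q of at least 5 or equal peak numbers gave 1 in control replicate 2. OCT4 without doxycycline was at 26 genes at a −log10 q of at least 5 and at 13 with equal peak numbers. For these peak settings the shares of other genes were not computed. Estimated counts divide reads among similar copies, which limits values of single genes.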

Other observations

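The transcript tables held 7 transcripts outside the annotation with identical TPM in each library. They summed to 845, 1499 and 1585 TPM in the control and to 1463, 1311 and 1211 TPM in the treated libraries, and were lowest in the library in which RPS9 was highest. Added to RPS9 they gave 1773, 1585 and 1698 TPM without and 1688, 1515 and 1484 TPM with doxycycline, where RPS9 alone ran from 86.1 to 928 TPM. Their identity was not established, and their part in the spread of RPS9 was not tested.

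For RPS3, a protein of the mRNA entry site, transcripts annotated for nonsense-mediated decay made up 54.4, 43.0 and 44.5% of its TPM in the control and 52.0, 47.5 and 52.5% in the treated libraries, so the groups overlapped.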
